A study of Homo sapiens with 12 samples.

Results

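The genes of the protein kinase C and protein kinase D families, most of which phorbol esters act on, were followed in 2 human pancreatic cancer cell lines. They are PRKCA, PRKCD, PRKCE, PRKCH, PRKCQ, PRKCI, PRKCZ, PRKD1, PRKD2 and PRKD3, 10 of the 19775 genes with a probe set (the group of short probes that reports 1 transcript) that maps to a single gene symbol. They were taken by gene symbol, with earlier results of these data known. Together they had 29 of the 54675 probe sets on the array, and 8 of the 10 had more than 1. For each gene the probe set with the highest mean signal over the arrays was used, and the others served as a check. RNA was measured on 12 Affymetrix arrays in 4 groups of 3. The groups were BxPC-3 cells given phorbol 12-myristate 13-acetate (PMA) at 1 µM for 4 h in 0.1% DMSO, untreated BxPC-3 cells, AsPC-1 cells given the same PMA treatment, and untreated AsPC-1 cells. All cells spent the night before in 2.5% foetal calf serum. BxPC-3 comes from a primary tumour and AsPC-1 from ascites. The 3 arrays of a group are 3 passages of 1 line, so the p-values measure the spread between passages and not between tumours. The sources used here do not say what vehicle the untreated cells received.

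Protein kinase C enzymes are serine and threonine kinases that fall into 3 classes. The classical isoforms, here PRKCA, need calcium and the lipid diacylglycerol, and the calcium-independent isoforms PRKCD, PRKCE, PRKCH and PRKCQ need diacylglycerol alone. PMA takes the place of diacylglycerol in their C1 domains, holds them at the membrane and switches them on. The atypical isoforms PRKCI and PRKCZ do not bind diacylglycerol or phorbol esters and are known for setting cell polarity. The protein kinase D enzymes PRKD1, PRKD2 and PRKD3 also carry C1 domains and are phosphorylated and activated by calcium-independent protein kinase C. Arrays report RNA, and neither protein amount nor kinase activity was measured here.

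All signals are on the linear scale of the deposited table, and changes are differences of log2(signal + 3), a scale that makes changes of dim genes look smaller than they are. The 40th percentile of signal, which a gene had to exceed on 3 arrays to be tested, lay between 8.18 and 10.2. The 5 epithelial markers KRT8, KRT18, KRT19, EPCAM and CDH1 were above the 75th percentile on all 12 arrays, with a summed signal of 13567 to 29321. Of the leukocyte, endothelial and fibroblast markers, 1 (COL1A1) passed that level on any array. The ACTB control's 3′ signal divided by its 5′ signal, a sign of RNA quality, was 1.84 to 2.02 on the BxPC-3 PMA arrays, against 2.56 to 4.14 on the untreated BxPC-3 arrays. It thus differed with PMA in BxPC-3, and its part in the results was not tested. In AsPC-1 the ratio was 1.79 to 2.32. AsPC-1 PMA replicate 1, from passage 8, correlated with its own group at 0.921 across genes, against 0.945 to 0.978 for the other 11 arrays. Both AsPC-1 arrays of passage 8 stood apart from the other AsPC-1 arrays for PRKCA, PRKCZ, PRKD2 and PIP4K2A. They also did for MARCKSL1, DGKH and WWC1, among other genes of the surrounding pathway. Whether the passage 8 culture was like the other AsPC-1 cultures was not tested, and every AsPC-1 mean includes it unless said otherwise. Leaving it out was chosen after seeing the data, so values and p-values without it are given as a description.

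None of the 9 tested isoform genes passed the test for a PMA change in either line, while 3 differed between the lines. In BxPC-3, 0 of 9 passed at a limma adjusted p under 0.05, where 5.82% of all 16099 tested genes did, and 1 of 9 had an unadjusted p under 0.05, as did 20.9% of all genes. In AsPC-1, 0 of 9 passed, against 1.96% of all genes, and 0 of 9 had an unadjusted p under 0.05, against 16.5%. After PMA, 3 of 9 differed between BxPC-3 and AsPC-1, where 33.5% of all genes did, and without treatment the same 3 genes did, where 32.4% of all genes did. These shares of the isoform genes lie near those of all genes. The PMA response of 0 of 9 differed between the lines, where 0.491% of all genes did, and 0 of 9 had an unadjusted p under 0.05 there, against 8.91%. PRKCH was higher in BxPC-3, the direction of 18.3% of all genes after PMA and 16.8% untreated. PRKCA and PRKD3 were lower in BxPC-3, the direction of 15.2% after PMA and 15.6% untreated. PRKD1 was too dim to be tested.

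**Figure D1:**
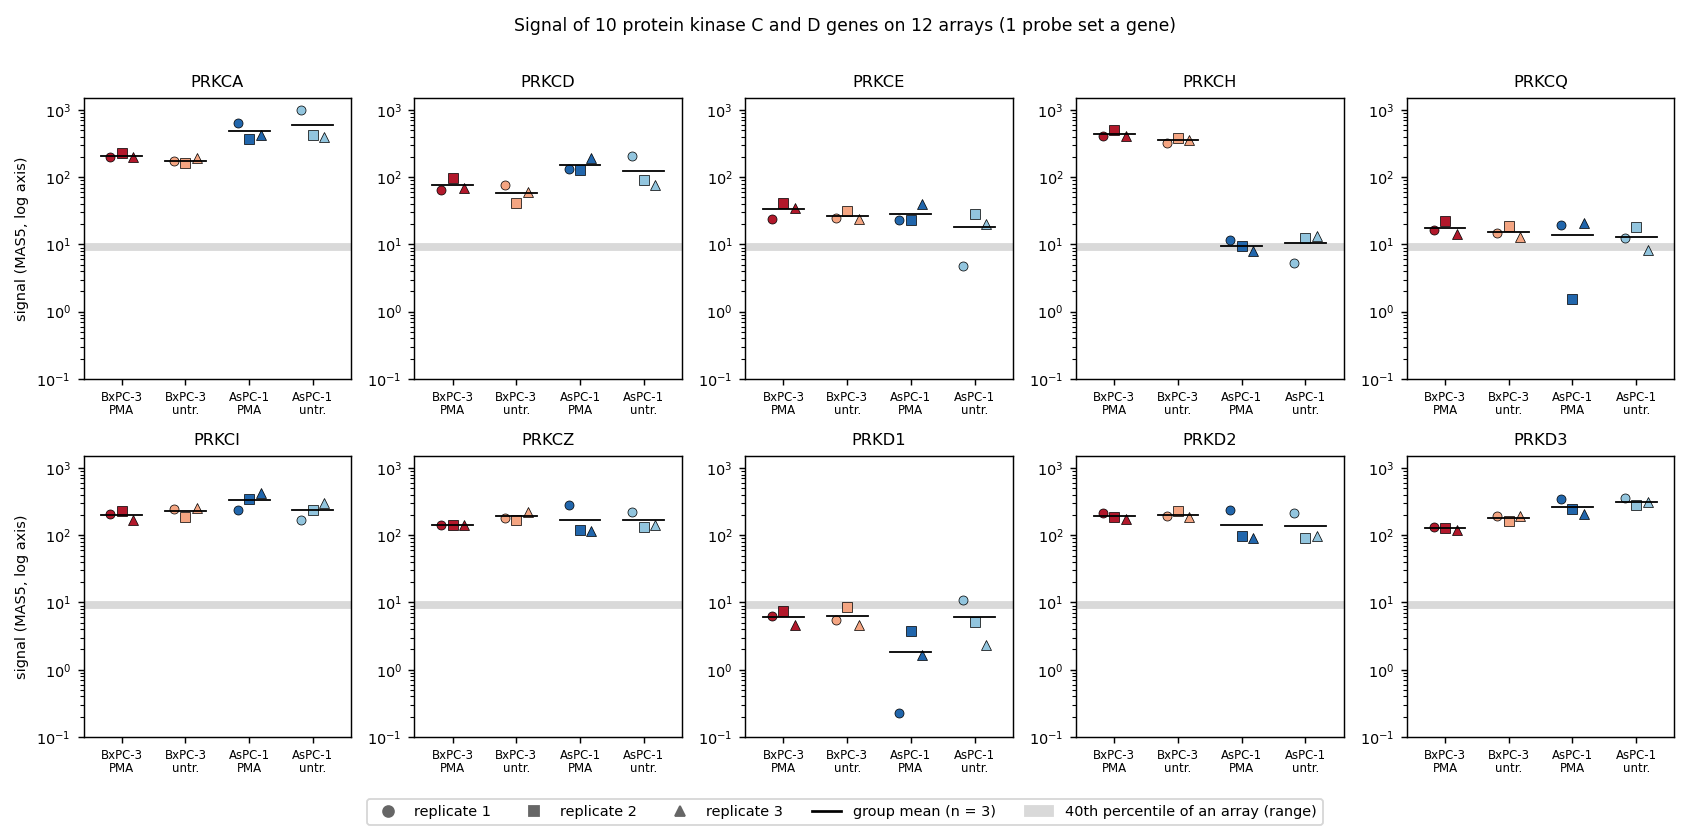
Signal of the 10 isoform genes on the 12 arrays (log axis, 1 probe set a gene), by line and treatment. Points are arrays, lines are group means, and the grey band spans the 40th percentile of the arrays, 8.18 to 10.2. PRKCH lies between 324 and 498 in BxPC-3 and between 5.25 and 13.3 in AsPC-1.

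PRKCH encodes PKC eta, a calcium-independent isoform best known from epithelia such as skin. Its signal was 418, 498 and 411 in BxPC-3 with PMA and 324, 383 and 359 in untreated BxPC-3. In AsPC-1 it was 11.6, 9.39 and 7.90 with PMA and 5.25, 12.6 and 13.3 untreated. All 6 BxPC-3 arrays were far above all 6 AsPC-1 arrays, on which the gene lay around the 40th percentile. BxPC-3 exceeded AsPC-1 by 5.14 ± 0.27 after PMA (log2, SE, adjusted p = 8.98e-09) and by 4.80 ± 0.27 untreated (adjusted p = 1.73e-08). Whether the AsPC-1 signal exceeds background was not tested, as detection calls were not used here, so the sizes of these differences are not exact and no fold is given.

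The other probe sets of PRKCH were of both kinds. Probe set 206099_at read 175, 194 and 153 in BxPC-3 with PMA and 114, 157 and 142 in untreated BxPC-3, against 2.44, 11.4 and 4.56 in AsPC-1 with PMA and 19.0, 3.02 and 11.6 in untreated AsPC-1. It gave the same order of lines, with differences of 4.39 ± 0.44 after PMA (adjusted p = 4.91e-06) and 3.48 ± 0.44 untreated (adjusted p = 4.2e-05). In that fit of 31252 single probe sets, 29.9% and 28.3% were called between the lines. Probe set 230124_at stayed between 0.478 and 1.49 on all 12 arrays. A mean over all PRKCH probe sets therefore gave smaller differences, 3.12 after PMA and 2.74 untreated.

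The PMA change of PRKCH did not pass the test in either line. In BxPC-3 all 3 treated arrays lay above all 3 untreated ones, by 0.37, 0.38 and 0.19 within the passages. Such separation was common in this line, where 38.9% of all genes had groups that did not overlap. The fitted change was 0.31 ± 0.27 (95% confidence interval -0.27 to 0.89, adjusted p = 0.574). In AsPC-1 it was -0.03 ± 0.27, with overlapping groups. The difference between the responses of the lines was 0.34 ± 0.38 (adjusted p = 0.877). Without the passage 8 arrays the AsPC-1 change was -0.46 (adjusted p = 0.0986) and the difference of responses 0.77 (adjusted p = 0.0677).

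PRKCA encodes PKC alpha, the classical isoform of the set. Its signal was 198, 233 and 198 in BxPC-3 with PMA and 177, 164 and 190.5 in untreated BxPC-3. In AsPC-1 it was 648, 373 and 419.7 with PMA and 994, 420.4 and 392 untreated. Every BxPC-3 array was below every AsPC-1 array, and the first replicate of each AsPC-1 group, from passage 8, was the highest of its group. BxPC-3 was lower by 1.15 ± 0.31 on the log2 scale after PMA (log2 difference -1.15, adjusted p = 0.011) and by 1.62 ± 0.31 untreated (log2 difference -1.62, adjusted p = 0.00115). Without the passage 8 arrays the differences were -0.91 after PMA (adjusted p = 5.38e-05) and -1.19 untreated (adjusted p = 5.59e-06).

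The second PRKCA probe set, 215195_at, read 55.6, 38.0 and 42.1 in BxPC-3 with PMA and 43.0, 30.8 and 44.9 in untreated BxPC-3. It read 234, 180.3 and 163 in AsPC-1 with PMA and 181, 116 and 125 in untreated AsPC-1. Here too the lines did not overlap, with differences of -2.02 ± 0.26 after PMA (adjusted p = 4.35e-05) and -1.75 ± 0.26 untreated (adjusted p = 0.000154). The dimmer probe set 206923_at gave -2.08 ± 0.56 after PMA (adjusted p = 0.0119) and -1.46 ± 0.56 untreated (adjusted p = 0.0665). The remaining 2 were above the 40th percentile on 3 arrays each and passed in neither comparison. The PMA change of PRKCA was 0.24 ± 0.31 in BxPC-3 (adjusted p = 0.73), where the groups did not overlap, and -0.23 ± 0.31 in AsPC-1 (adjusted p = 0.774, and -0.04 without passage 8), where they did. Probe set 215195_at gave 0.18 ± 0.26 in BxPC-3 and 0.45 ± 0.26 in AsPC-1 (adjusted p = 0.765 and 0.431), higher in 3 of 3 AsPC-1 passages. The mean over all probe sets gave -0.25 in BxPC-3 (adjusted p = 0.589) and 0.34 in AsPC-1 (adjusted p = 0.472). No PMA direction can therefore be given for PRKCA.

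PRKD3 is a protein kinase D, a family known for acting at the trans-Golgi network and on histone deacetylases. Its signal was 135, 126 and 118 in BxPC-3 with PMA and 194, 162 and 193 in untreated BxPC-3. In AsPC-1 it was 342, 243 and 210.2 with PMA and 352, 279 and 311 untreated. All BxPC-3 arrays lay below all AsPC-1 arrays, and within BxPC-3 all PMA arrays lay below all untreated ones. The line difference was -1.02 ± 0.20 after PMA (adjusted p = 0.00153) and -0.77 ± 0.20 untreated (adjusted p = 0.0107). The untreated call was lost without BxPC-3 untreated replicate 2 (-0.69, adjusted p = 0.0521), with the mean over all probe sets (-0.41, adjusted p = 0.218) and with a minimum of 2-fold. In the fit of single probe sets, 211084_x_at passed in neither comparison. It gave -0.62 ± 0.25 after PMA (adjusted p = 0.0768) and -0.30 ± 0.25 untreated (adjusted p = 0.409), where the lines overlapped. The dimmer 222565_s_at passed in both, at -1.996 ± 0.44 after PMA (adjusted p = 0.00334) and -1.30 ± 0.44 untreated (adjusted p = 0.039). The probe sets thus gave the same direction between the lines but not the same calls.

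PRKD3 had the smallest p of the isoform genes for PMA in BxPC-3. The change was -0.52 ± 0.20 (95% confidence interval -0.96 to -0.08, unadjusted p = 0.0241, adjusted p = 0.161), and it was lower in 3 of 3 passages, by -0.51, -0.36 and -0.69. It passed when AsPC-1 PMA replicate 1, which is not part of the comparison but enters the shared spread, was left out (adjusted p = 0.0334), when both passage 8 arrays were (adjusted p = 0.00895), and when only the BxPC-3 arrays were fitted (adjusted p = 0.0202). The change stayed at -0.52 in each of these fits. They called 2394, 3769 and 3535 of all genes, as against 937 with all arrays. The probe sets did not give 1 direction. The chosen 218236_s_at and the dimmer 222565_s_at had negative values (-0.52 and -1.18), and 211084_x_at had a positive one (0.17). In AsPC-1 the PMA change on the chosen probe set was -0.27 ± 0.20 (adjusted p = 0.568), lower in 3 of 3 passages with overlapping groups. There 211084_x_at was higher in 3 of 3 passages, at 0.49 ± 0.25 (adjusted p = 0.364 among all probe sets). The dimmer 222565_s_at was lower in 3 of 3, at -0.49 ± 0.44 (adjusted p = 0.652), so the probe sets did not give 1 direction in AsPC-1 either. All 3 PRKD3 probe sets that entered the tests carry the marks s or x, which are given to probes that can also hit related transcripts.

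**Figure D2:**
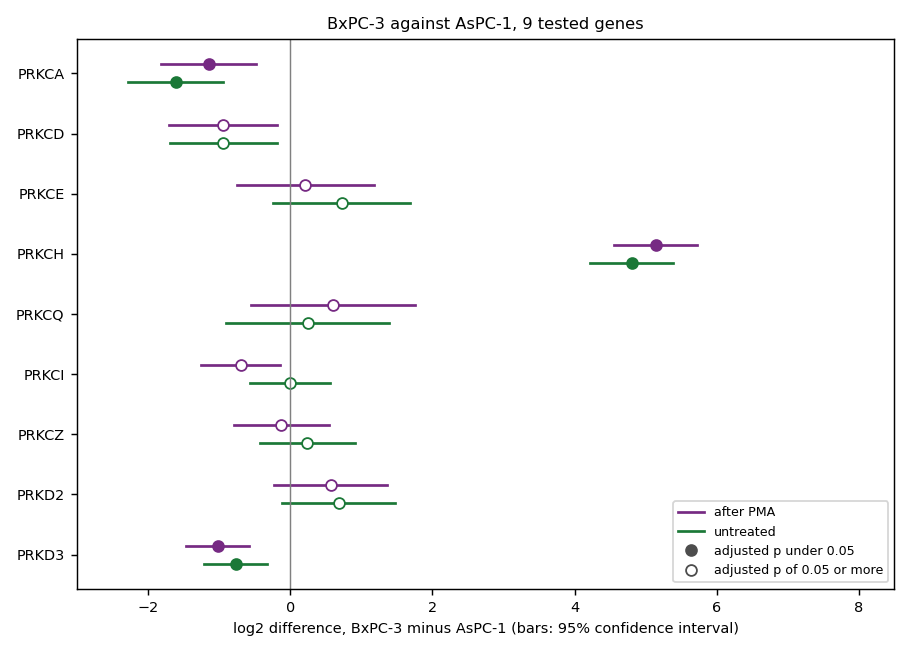
Difference between BxPC-3 and AsPC-1 for the 9 tested isoform genes, after PMA (purple) and untreated (green), in log2 with 95% confidence intervals. Filled points passed at an adjusted p under 0.05: PRKCH at 5.14 and 4.80, PRKCA at -1.15 and -1.62, PRKD3 at -1.02 and -0.77.

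Start-site sequences of these 3 genes are shown because they are the ones whose RNA differed between the lines. They are the 250 bases before the annotated start in RefSeq's promoter table (GRCh38.p14), 5′ to 3′ on the gene's strand, with GGGCGG, the core of the Sp1 box, or its reverse complement CCGCCC in capitals. They lie at chr14:61321329-61321578 on the plus strand for PRKCH, at chr17:66302363-66302612 on the plus strand for PRKCA and at chr2:37324834-37325083 on the minus strand for PRKD3. The PRKCA and PRKD3 windows abut the annotated gene, while the PRKCH window lies inside it (chr14:61187468-61550976), so it stands before a start within the gene and not before the gene's first base.
PRKCH: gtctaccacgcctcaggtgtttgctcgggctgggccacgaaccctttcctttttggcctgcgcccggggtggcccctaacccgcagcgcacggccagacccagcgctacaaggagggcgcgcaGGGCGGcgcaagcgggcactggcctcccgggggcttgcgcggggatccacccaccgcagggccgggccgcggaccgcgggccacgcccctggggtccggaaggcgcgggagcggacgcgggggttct
PRKCA: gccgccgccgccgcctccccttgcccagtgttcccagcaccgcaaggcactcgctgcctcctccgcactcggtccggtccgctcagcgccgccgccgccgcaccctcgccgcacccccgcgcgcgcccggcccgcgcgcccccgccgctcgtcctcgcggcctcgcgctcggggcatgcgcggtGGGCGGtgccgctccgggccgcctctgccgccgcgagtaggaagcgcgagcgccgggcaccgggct
PRKD3: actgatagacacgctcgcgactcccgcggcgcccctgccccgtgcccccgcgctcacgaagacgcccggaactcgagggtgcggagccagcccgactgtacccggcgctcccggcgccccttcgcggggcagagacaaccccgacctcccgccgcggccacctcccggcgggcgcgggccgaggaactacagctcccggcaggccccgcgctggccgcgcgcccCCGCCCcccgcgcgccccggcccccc
All 3 stretches are rich in G and C, with 75.2% in PRKCH, 82.0% in PRKCA and 80.4% in PRKD3, and each holds 1 GGGCGG. The element TGACTCA, by which the factor AP-1 answers phorbol esters, was searched on both strands (reverse complement TGAGTCA) together with TGACGTCA, the cyclic AMP response element, which reads the same on both strands and shares no match with it. TGACTCA was in 0 of the 17 windows of the 10 genes, as against 4.20% of all 35116 windows of this length. TGACGTCA was in 1 of 17, a window of PRKCZ, as against 1.65%, and GGGCGG in 13 of 17, as against 42.6%. These counts describe the letters in the windows and nothing about binding in these cells.

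PRKCD encodes PKC delta, a calcium-independent isoform known for its part in apoptosis. Its single probe set read 64.2, 96.9 and 70.1 in BxPC-3 with PMA and 75.8, 41.3 and 60.5 in untreated BxPC-3. In AsPC-1 it read 132, 130.3 and 193 with PMA and 206, 90.3 and 77.7 untreated. The lines did not overlap under either condition, with BxPC-3 below AsPC-1. In all, 5 of 9 genes had lines that did not overlap after PMA, where 43.4% of all genes did, and 4 of 9 untreated, where 50.6% did. The difference for PRKCD missed the threshold after PMA (-0.95 ± 0.35, adjusted p = 0.0522) and untreated (-0.94 ± 0.35, adjusted p = 0.0546). It passed under 10 of 25 alternatives after PMA and under 4 of 25 untreated.

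The AsPC-1 values of PRKCD turned on the passage 8 arrays. PMA gave 0.38 ± 0.35 in BxPC-3 (adjusted p = 0.598) and 0.39 ± 0.35 in AsPC-1 (adjusted p = 0.638). Within the AsPC-1 passages the PMA differences were -0.64 in passage 8 and 0.52 and 1.28 in the other passages. Without passage 8 the AsPC-1 change was 0.90 (adjusted p = 0.0403), and the line difference was -1.04 after PMA (adjusted p = 0.00487) and -0.52 untreated (adjusted p = 0.131). In that fit these comparisons called 3442, 7612 and 7155 of all genes.

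PRKCE and PRKCQ were dim. PRKCE encodes PKC epsilon, a calcium-independent isoform known as an oncogene in cell culture, and PRKCQ encodes PKC theta, the isoform of the T cell synapse. PRKCE read 23.9, 41.4 and 34.5 in BxPC-3 with PMA and 24.5, 31.0 and 24.3 in untreated BxPC-3, and 23.0, 22.9 and 39.98 in AsPC-1 with PMA and 4.75, 28.7 and 20.3 in untreated AsPC-1. All 4 groups overlapped. Its PMA change was 0.27 ± 0.45 in BxPC-3 (adjusted p = 0.796) and 0.78 ± 0.45 in AsPC-1 (95% confidence interval -0.19 to 1.74, adjusted p = 0.421), and the AsPC-1 value was 0.30 without passage 8.

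PRKCQ read 16.5, 22.2 and 14.3 in BxPC-3 with PMA and 15, 18.8 and 12.7 in untreated BxPC-3. In AsPC-1 it read 19.6, 1.56 and 20.5 with PMA and 12.4, 18.2 and 8.38 untreated. The groups overlapped, and 1 AsPC-1 PMA array was far below the rest. The changes with PMA were 0.16 ± 0.53 in BxPC-3 and -0.20 ± 0.53 in AsPC-1, with intervals from -0.995 to 1.31 and from -1.35 to 0.95, which are wide for both lines. The second probe set, 210038_at, gave 1.08 ± 0.53 in AsPC-1 (adjusted p = 0.355). Its AsPC-1 groups did not overlap, as for 14.4% of all genes, by a narrow margin. The lowest PMA signal was 16.83 and the highest untreated one 16.80. Neither gene passed between the lines.

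PRKCI encodes PKC iota, an atypical isoform that binds the PAR6 and PAR3 polarity proteins. Probe sets 209678_s_at and 213518_at had nearly the same mean over the 12 arrays, 250.3 and 249.7, so the choice between them was close. The chosen 209678_s_at read 209, 226 and 168 in BxPC-3 with PMA and 244, 187 and 258 in untreated BxPC-3. The groups overlapped, and the change was -0.19 ± 0.26 (adjusted p = 0.755). The other, 213518_at, read 326, 412 and 356 in BxPC-3 with PMA and 199, 205 and 223 in untreated BxPC-3. Here all PMA arrays lay above all untreated ones, by 0.71, 1.00 and 0.67 within the passages.

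The 2 probe sets thus gave opposite signs in BxPC-3. The 213518_at change was 0.79 ± 0.21 and just missed the threshold in the fit of all probe sets (adjusted p = 0.0511), where 5% were called. It passed when genes were represented by probe sets without the marks s, x or a (adjusted p = 0.048). The third probe set, 209677_at, read 33.3, 84.3 and 45.5 with PMA and 33.3, 22.9 and 24.9 untreated, a change of 0.85 ± 0.42 (adjusted p = 0.278). No PMA direction can therefore be given for PRKCI in BxPC-3.

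In AsPC-1 the brighter PRKCI probe sets, 209678_s_at and 213518_at, ran the same way. The chosen one read 239.7, 344 and 421 with PMA and 168, 234 and 305 untreated, and 213518_at read 310.0, 206 and 216 with PMA and 231, 158 and 154 untreated. Within the passages the first was higher by 0.51, 0.55 and 0.46 and the second by 0.42, 0.37 and 0.48, although the groups overlapped. The fitted changes were 0.51 ± 0.26 (adjusted p = 0.358) and 0.42 ± 0.21 (adjusted p = 0.372 among all probe sets, of which 1.08% were called). The dimmer 209677_at gave 0.28 ± 0.42 (adjusted p = 0.808) and was lower with PMA in 1 passage. The chosen probe set passed once AsPC-1 PMA replicate 1 was left out (0.73, adjusted p = 0.0482), in a fit that called 3147 genes. It did not pass once both passage 8 arrays were left out (0.51, adjusted p = 0.0925).

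Between the lines PRKCI again depended on the probe set. After PMA the chosen one was lower in BxPC-3, by -0.70 ± 0.26 (adjusted p = 0.0537), and 213518_at was higher in BxPC-3, by 0.59 ± 0.21 (adjusted p = 0.0524). Each had groups that did not overlap and neither passed. Without passage 8 the chosen one did (-0.92, adjusted p = 0.000784), where 7612 genes were called. Untreated, the chosen one gave -0.01 ± 0.26 and 213518_at 0.22 ± 0.21. The response to PMA differed between the lines by -0.69 ± 0.37 on the chosen probe set (adjusted p = 0.641).

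**Figure D3:**
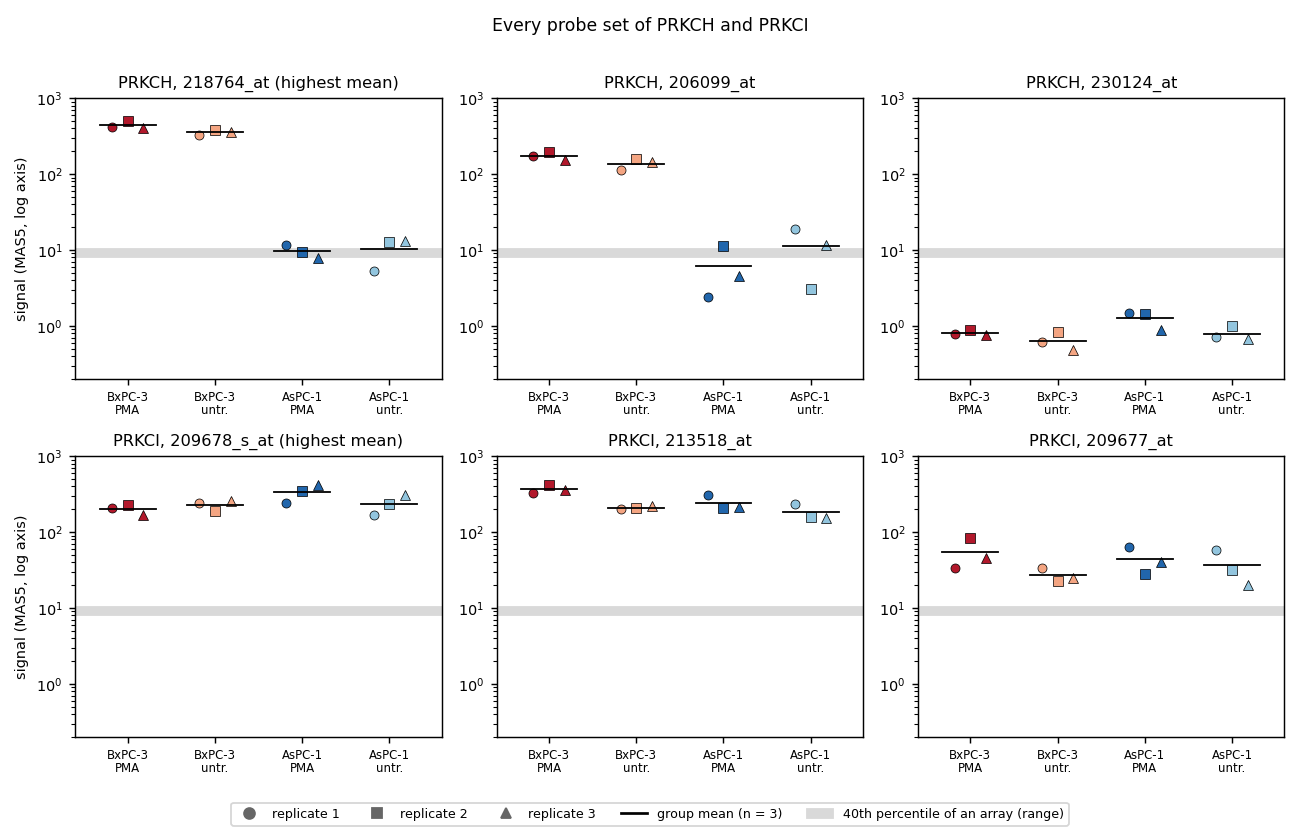
Signal of every probe set of PRKCH (top) and PRKCI (bottom) on the 12 arrays, log axis, with group means. PRKCH 218764_at and 206099_at separate the lines, and 230124_at stays between 0.478 and 1.49. For PRKCI in BxPC-3, the PMA arrays overlap the untreated ones on 209678_s_at and lie above them on 213518_at.

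PRKCZ encodes PKC zeta, the other atypical isoform. Its single probe set read 142, 144 and 144 in BxPC-3 with PMA and 182, 171 and 223 in untreated BxPC-3. In AsPC-1 it read 279.7, 119 and 115 with PMA and 222, 132 and 144 untreated. All BxPC-3 PMA arrays were below all untreated BxPC-3 arrays, while the AsPC-1 groups overlapped and passage 8 was high in both. The change was -0.41 ± 0.31 in BxPC-3 (95% confidence interval -1.07 to 0.26, adjusted p = 0.51) and -0.04 ± 0.31 in AsPC-1 (adjusted p = 0.967; -0.23 without passage 8). With the AsPC-1 passage 8 arrays out of the fit, the BxPC-3 change was the same size and passed (adjusted p = 0.0421), and the untreated line difference of 0.24 ± 0.31 became 0.46 (adjusted p = 0.0219). In that fit these comparisons called 3769 and 7155 of all genes.

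Among the protein kinase D genes, PRKD2 split AsPC-1 by passage. It read 218, 185 and 172 in BxPC-3 with PMA and 195, 228 and 187 in untreated BxPC-3. In AsPC-1 it read 238, 96.5 and 90.5 with PMA and 217, 90.9 and 98.6 untreated. The passage 8 arrays were at the BxPC-3 level and the other 4 AsPC-1 arrays well below it. The probe set 209282_at showed the same split, with 145 and 127 on the PMA and untreated arrays of passage 8 and 31.6 to 54.6 on the other AsPC-1 arrays.

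With all arrays PRKD2 did not pass between the lines, at 0.57 ± 0.37 after PMA (adjusted p = 0.273) and 0.68 ± 0.37 untreated (adjusted p = 0.18). Without passage 8 it did, at 1.01 after PMA (adjusted p = 9.54e-05) and 1.07 untreated (adjusted p = 6.32e-05), where 7612 and 7155 genes were called. These arrays were left out after they were seen to stand apart for this very gene, so these p-values are no test of it. The PMA change was -0.08 ± 0.37 in BxPC-3 and 0.03 ± 0.37 in AsPC-1, with overlapping groups in both.

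PRKD1, the founding protein kinase D, was not tested. Its brighter probe set read 6.37, 7.40 and 4.65 in BxPC-3 with PMA and 5.53, 8.69 and 4.63 in untreated BxPC-3, and 0.228, 3.71 and 1.64 in AsPC-1 with PMA and 10.95, 5.15 and 2.31 in untreated AsPC-1. It exceeded the 40th percentile on 2 of 12 arrays and the other probe set, 217705_at, on 0. Signals this low have no dependable order.

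Across the 9 tested genes the median PMA change was 0.16 in BxPC-3 and -0.03 in AsPC-1, against medians of 0.00023 and -0.10 over all genes. In BxPC-3 the groups did not overlap for 4 of 9 genes, PRKCA and PRKCH with PMA higher (17% of all genes) and PRKCZ and PRKD3 with PMA lower (21.9%). In AsPC-1 they did not overlap for 0 of 9, where 14.4% of all genes did. The values reached from -0.52 to 0.38 in BxPC-3 and from -0.27 to 0.78 in AsPC-1. With 3 arrays on each side, the smallest p of an exact permutation test is 0.1.

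**Figure D4:**
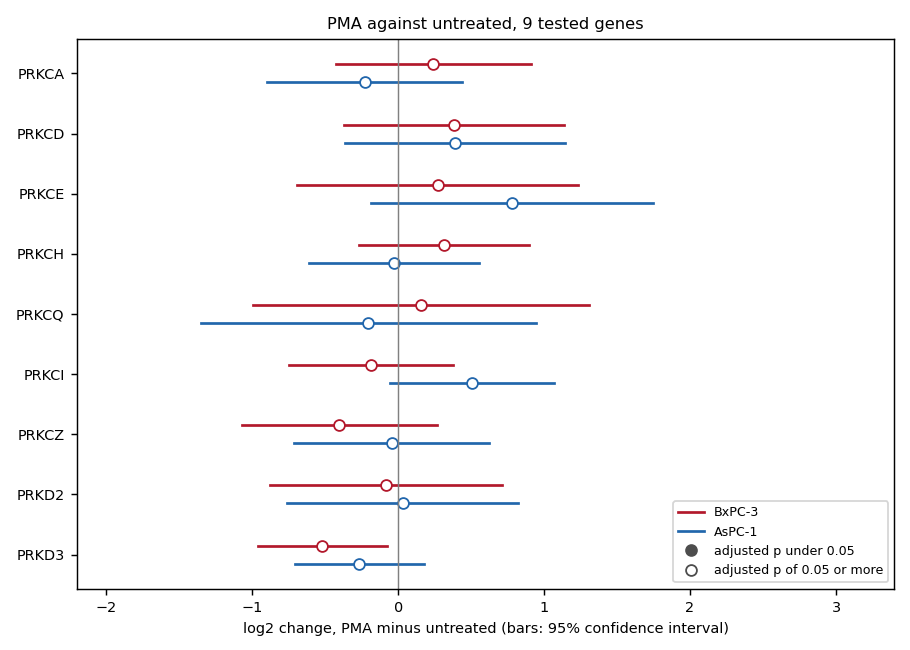
PMA change of the 9 tested isoform genes in BxPC-3 (red) and AsPC-1 (blue), in log2 with 95% confidence intervals. Open points did not pass the test, and all 18 are open. The interval of PRKD3 in BxPC-3, -0.96 to -0.08, is the 1 that leaves out 0.

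The genes nearest in pattern to the 3 isoforms that differed between the lines were found by the root mean square difference of the gene-centred log2 values over the 12 arrays, as a description. For PRKCH they were ZNF503 (0.276) and HYCC1 (0.349), where PRKCH itself had an SD of 2.61 over the arrays. For PRKCA they were ME3 (0.126) and MAF1 (0.184), against an SD of 0.82. For PRKD3 they were EGLN1 (0.115) and MED7 (0.128), against an SD of 0.55.

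The pathway around the kinases was followed in 8 lists of 84 genes, of which 71 could be tested. Of these, 7 passed for PMA in BxPC-3 (6 higher and 1 lower) and 2 in AsPC-1 (both higher), as against the 5.82% and 1.96% of all genes given above. RASGRP3 entered the test only through the BxPC-3 PMA arrays on which it was high, so its call was fixed in part by the filter, and 6 of the BxPC-3 calls remain without it (5 higher and 1 lower). In BxPC-3 they came from the other C1-domain receptors (1 of 5, RASGRP3), the phospholipases C (1 of 10), the kinases, phosphatases and ligases that act on protein kinase C (2 of 12), its substrates and anchors (1 of 14) and the partners of the atypical isoforms (2 of 10). The other PKC and PKN genes (0 of 3), the diacylglycerol kinases (0 of 6) and the protein kinase D substrates (0 of 11) had none, in either line.

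MARCKSL1 encodes a relative of MARCKS, the actin-binding substrate that protein kinase C releases from the membrane. It read 675, 669 and 531 in BxPC-3 with PMA and 91.99, 114 and 99.3 in untreated BxPC-3. In AsPC-1 it read 978, 594 and 583 with PMA and 1157, 549.7 and 541 untreated. PMA brought the BxPC-3 signal close to the AsPC-1 range, while the AsPC-1 groups overlapped. It rose by 2.58 ± 0.28 in BxPC-3 (5.98-fold, adjusted p = 0.000289), and the responses of the lines differed by 2.59 ± 0.40 (adjusted p = 0.0165). That was the 1 call among the 71 for a difference in response, where 0.491% of all genes were called. It was lost without any 1 of 4 BxPC-3 arrays (adjusted p of 0.0589 to 0.0697) and kept in the other 20 of 24 alternatives. Without the AsPC-1 passage 8 arrays the difference was 2.47 (adjusted p = 8.25e-06), in a fit that called 1187 genes.

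PARD6B encodes a PAR6 protein, which joins the atypical isoforms to the polarity complex. It read 1474, 1887 and 1540.0 in BxPC-3 with PMA and 271, 338 and 465 in untreated BxPC-3. In AsPC-1 it read 1111, 2252 and 2369 with PMA and 772, 810.5 and 765 untreated. In both lines all PMA arrays lay above all untreated ones. The rise was 2.21 ± 0.26 in BxPC-3 (adjusted p = 0.000463) and 1.21 ± 0.26 in AsPC-1 (adjusted p = 0.0363). With the mean over all its probe sets neither rise passed (0.95, adjusted p = 0.349, in BxPC-3, and 1.00, adjusted p = 0.373, in AsPC-1). The AsPC-1 rise was also lost with no intensity trend (adjusted p = 0.0958), with the AsPC-1 arrays alone (adjusted p = 0.291) and without any 1 of 9 arrays (adjusted p of 0.0543 to 0.18), all but AsPC-1 PMA replicate 1 and BxPC-3 untreated replicates 1 and 3. Without both passage 8 arrays it was 1.55 and passed (adjusted p = 6.11e-05), in a fit that called 3442 genes.

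RASGRP3, an exchange factor for Ras that binds diacylglycerol and phorbol esters through a C1 domain, read 26.3, 17.8 and 19.1 in BxPC-3 with PMA and 2.41, 6.76 and 1.22 in untreated BxPC-3. It read 2.42, 1.70 and 6.46 in AsPC-1 with PMA and 1.52, 3.94 and 2.13 in untreated AsPC-1. Outside the BxPC-3 PMA arrays every value was under the 40th percentile. The difference with PMA in BxPC-3 was 1.97 ± 0.44, or 0.93 with a pseudocount of 16, and is given as a description with no test, since the gene passed the filter only through these 3 arrays.

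Smaller changes in BxPC-3 were found for the atypical isoforms' scaffold SQSTM1, which rose by 1.06 ± 0.17 (adjusted p = 0.00377), with 2088, 2925 and 2108 after PMA and 1028, 1144 and 1215 untreated. PLCE1, a phospholipase C that makes diacylglycerol, fell by 1.15 ± 0.23 on the log2 scale (log2 change -1.15, adjusted p = 0.0115), with 79.0, 69.8 and 77.9 after PMA and 135, 157 and 237 untreated. Its call was lost without BxPC-3 PMA replicate 2 (adjusted p = 0.0508), without BxPC-3 untreated replicate 3 (adjusted p = 0.0708) and with the mean of its probe sets (-0.28, adjusted p = 0.562). The phosphatase subunit PPP2CA (0.49 ± 0.12, adjusted p = 0.0274) and the chaperone HSP90AB1 (0.42 ± 0.12, adjusted p = 0.0492) passed narrowly, and each lost its call without any 1 of the 6 BxPC-3 arrays (adjusted p of 0.0546 to 0.133 and of 0.066 to 0.181). HSP90AB1 also lost it without AsPC-1 PMA replicate 2 or 3 or untreated replicate 3 (adjusted p of 0.0522 to 0.0675). PPP2CA was also lost with median centring (adjusted p = 0.0756), quantile normalization (adjusted p = 0.0858) and no intensity trend (adjusted p = 0.11), and turned to -0.48 with the mean of its probe sets (adjusted p = 0.183). HSP90AB1 lost its call under 16 of 25 alternatives and was 0.20 with quantile normalization (adjusted p = 0.17).

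In AsPC-1 the second call was PLEK2, a relative of the platelet substrate pleckstrin. It read 1778, 1582 and 1622 with PMA and 691, 808 and 900.2 untreated, a rise of 1.06 ± 0.23 (adjusted p = 0.0339). In BxPC-3 it read 910.3, 563 and 828 with PMA and 869.7, 968 and 539 untreated, with overlapping groups. The AsPC-1 call was lost with quantile normalization (adjusted p = 0.0544), with no intensity trend (adjusted p = 0.0932) and with the AsPC-1 arrays alone (adjusted p = 0.141). It was also lost without any 1 of 8 arrays (adjusted p of 0.0503 to 0.132), all but AsPC-1 PMA replicate 1, BxPC-3 PMA replicate 2 and BxPC-3 untreated replicates 2 and 3. Without both passage 8 arrays the rise was 0.91 and passed (adjusted p = 0.0165).

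Between the lines 22 of the 71 listed genes differed after PMA (7 higher, RASGRP3 with its limit among them, and 15 lower in BxPC-3). Untreated, 26 differed (7 higher and 19 lower). In total that is 31.0% and 36.6%, where 33.5% and 32.4% of all genes differed. By direction, 18.3% of all genes were higher and 15.2% lower in BxPC-3 after PMA, and 16.8% and 15.6% untreated. The listed genes thus had more lower than higher calls, unlike all genes, and the reason was not tested. PLCB1, a phospholipase C driven by G proteins, read 266, 338 and 265 in BxPC-3 with PMA and 259, 287 and 323 in untreated BxPC-3, against 20.2, 30.1 and 31.2 in AsPC-1 with PMA and 23.0, 23.8 and 13.0 in untreated AsPC-1. It was higher in BxPC-3 by 3.29 ± 0.26 after PMA (adjusted p = 4.01e-07) and 3.71 ± 0.26 untreated (adjusted p = 1.25e-07). UNC13B, a vesicle-priming protein with a phorbol-binding C1 domain, ran the other way. It read 17.6, 29.5 and 24.7 in BxPC-3 with PMA and 24.6, 25.8 and 27.9 in untreated BxPC-3, against 300.2, 173 and 188 in AsPC-1 with PMA and 203, 213 and 189 in untreated AsPC-1.

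Neither gene's values overlapped between the lines. The UNC13B differences were -3.03 ± 0.25 after PMA (adjusted p = 7.65e-07) and -2.82 ± 0.25 untreated (adjusted p = 1.44e-06). The phosphatases PHLPP1 and PHLPP2, which remove an activating phosphate from protein kinase C, differed in opposite directions. PHLPP1 was higher in BxPC-3 by 2.21 ± 0.29 after PMA and 2.33 ± 0.29 untreated (adjusted p = 5.36e-05 and 3.31e-05), and PHLPP2 was lower, at -2.70 ± 0.34 and -2.94 ± 0.34 (adjusted p = 3.17e-05 and 1.43e-05). With the mean over all probe sets PLCB1 gave 2.09 and 2.11, PHLPP1 1.23 and 1.09, and PHLPP2 -1.78 after PMA.

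Among the partners of the atypical isoforms PARD6G, another PAR6 protein, was higher in BxPC-3, by 3.06 ± 0.43 after PMA (adjusted p = 9.65e-05) and 3.49 ± 0.43 untreated (adjusted p = 3.07e-05), and its AsPC-1 signals of 5.10 to 29.6 reached below the 40th percentile. Its mean over all probe sets differed by 1.06 and 1.63. PIP4K2A, a lipid kinase from the protein kinase D substrates, was lower in BxPC-3, by -2.99 ± 0.48 after PMA (adjusted p = 0.000292) and -1.89 ± 0.48 untreated (adjusted p = 0.00841). Its AsPC-1 arrays of passage 8, at 456 with PMA and 317 untreated, were well under the other AsPC-1 arrays, at 956 to 1836. Without them the differences were -3.63 after PMA (adjusted p = 2.94e-10) and -2.42 untreated (adjusted p = 1.89e-08).

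**Figure D5:**
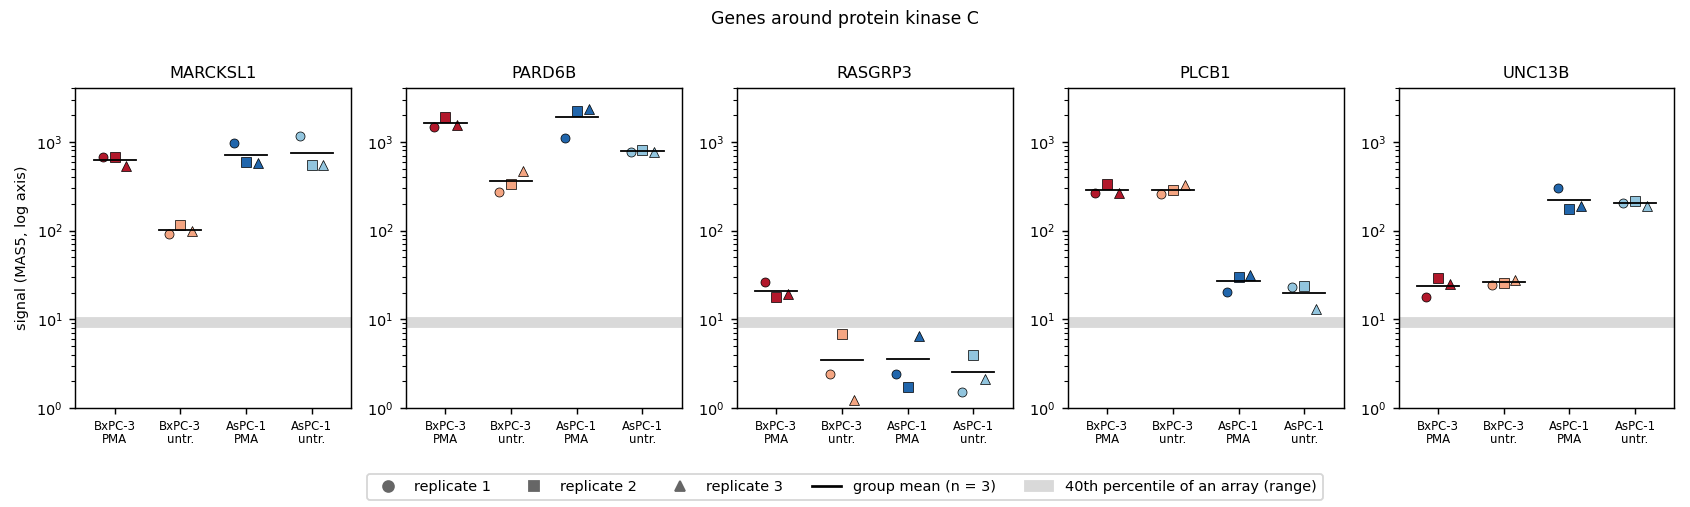
Signal of MARCKSL1, PARD6B, RASGRP3, PLCB1 and UNC13B on the 12 arrays, log axis, with group means and the 40th percentile band. MARCKSL1, PARD6B and RASGRP3 are higher with PMA in BxPC-3, and PLCB1 (13.0 to 338) and UNC13B (17.6 to 300.2) separate the lines under both conditions.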

How the data were processed

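Members and gene lists were chosen with earlier results of these data known. The deposited values are signal intensity, linear, made with MAS5 per the submitters' processing notes, which name no version. Array signal carries no read depth, and the 12 arrays limit the precision. Probe sets with 1 symbol (41091) were kept, the 62 control probe sets were left out, and the brightest probe set stood for a gene. Genes above the array's 40th percentile on at least 3 arrays were tested (16099). The 4 group means of log2(signal + 3) were fitted jointly (R 4.3.3, limma 3.58.1, lmFit and eBayes with trend, 8 residual degrees of freedom), so an SE for BxPC-3 includes the spread of AsPC-1 arrays. Two-sided p-values were adjusted by Benjamini-Hochberg and called under 0.05. The fit was tested on simulated data. Probe sets were also fitted singly (31252).

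Genes that could be named were the 10 isoform genes, up to 3 called genes with the largest changes per list and comparison, and the 2 genes nearest in pattern to each called isoform gene. For the differences between the lines only some of them are described. PKN2, PLCD3, RBCK1, AKAP12, ADD3, PDLIM5, PARD3, SSH1, RIN1 and KIDINS220 were also called in at least 1 comparison of the lines. Alternatives were other scalings, pseudocounts (1 and 16), filters and probe set summaries, no trend, fits of only the 2 groups compared, the replicate number as a block, a minimum of 2-fold, and each array left out in turn, with the passage 8 arrays of AsPC-1 left out as an alternative chosen after seeing the data. Within a line, treated and untreated arrays of 1 number share a passage per the labels, which pairs them. Deviations of paired arrays from their group means had correlations of -0.05, -0.13 and -0.06 for BxPC-3 and of 0.41, 0.21 and 0.16 for AsPC-1. Promoter letters are RefSeq's (GRCh38.p14), and all 10 genes matched by Entrez ID. Python 3.11.15 with matplotlib 3.10.9 drew the figures.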

Additional observations from a re-analysis of the deposited data

Results flagged for a closer look

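The PMA response of MARCKSL1, the relative of MARCKS, differed between the lines by a direct test of that difference, at 2.59 ± 0.40 on the log2 scale (BxPC-3 response minus AsPC-1 response, limma adjusted p = 0.0165). It was higher with PMA in 3 of 3 BxPC-3 passages, and in AsPC-1 the groups overlapped. The call was lost without any 1 of BxPC-3 PMA replicates 1, 2 and 3 or BxPC-3 untreated replicate 1 (adjusted p of 0.0589 to 0.0697), and the size stayed between 2.52 and 2.70 there.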

How the results depend on the processing

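The line differences of PRKCH and PRKCA passed under all 25 alternatives, PRKCH between 3.12 and 5.39 after PMA and between 2.74 and 5.06 untreated. PRKD3 passed after PMA under all 24 that could be run (it has no tested probe set free of the marks s, x and a). For PMA in BxPC-3 the count of isoform genes passing was 1 with probe sets without those marks (PRKCI, where its change reversed to 0.79). That fit called 904 genes in all, as against 937 as reported. The count was 1 with the BxPC-3 arrays alone (PRKD3, 3535 genes called) and 2 without AsPC-1 passage 8 (PRKCZ and PRKD3, 3769 genes called). With each array left out it was 0 to 1, the 1 being PRKD3 in a fit that called 2394 genes. For PMA in AsPC-1 the count was 1 without passage 8 (PRKCD, 3442 genes called, as against 316 as reported). With each array left out it was 0 to 1, the 1 being PRKCI in a fit that called 3147 genes. After PMA it was 5 between the lines with median centring and with the stricter filter (the array median on 6 arrays), which both add PRKCD and PRKCI. Those fits called 5108 and 5192 genes in all, as against 5390 as reported. The count was 6 without passage 8 (adding PRKD2), where 7612 genes were called. With each array left out it was 3 to 6, in fits that called 4300 to 6542 genes. Untreated it was 5 without passage 8, where 7155 genes were called, as against 5216 as reported. With each array left out it was 2 to 4, in fits that called 4124 to 6542 genes. With the replicate block the counts were 0 for PMA in BxPC-3, 0 for PMA in AsPC-1, 4 after PMA (adding PRKCI, adjusted p = 0.0477), 3 untreated and 0 for the difference of responses. In the same order, 1645, 904, 5415, 5217 and 126 of all genes were called there. Isoform values that passed in neither fit changed sign 5 times for PMA in BxPC-3, 18 in AsPC-1, 8 between lines after PMA, 5 untreated and 18 for the difference.

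Among the other genes PPP2CA reversed from 0.49 to -0.48 in BxPC-3 with the mean of all probe sets. With that mean PLCE1 went from 0.64 (adjusted p = 0.0493) to -0.0075 between untreated lines, a call lost under 19 of 25 alternatives. WWC1 was called lower in BxPC-3, at -2.06 after PMA (adjusted p = 0.00262) and -1.57 untreated (adjusted p = 0.0148). With unmarked probe sets it reversed to 1.17 after PMA and 0.53 untreated. The cause was not tested. Over all genes the calls ranged from 325 to 3769 for PMA in BxPC-3 (937 as reported), from 0 to 3442 in AsPC-1 (316) and from 9 to 1187 for the difference (79), the 2-fold minimum aside.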
